A study of Mus musculus with 2 samples.

Results

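Notch receptors, ligands and target genes were examined in the lungs of mouse pups after blockade of Hedgehog ligands. The set holds 10 of the 29004 features counted: the receptors Notch1, Notch2, Notch3 and Notch4, the ligands Dll4, Jag1 and Jag2, and the target genes Hey1, Heyl and Hes1. They were selected by gene name, with earlier results of these data known, and all 10 were found among the features. Single cells of whole lungs were sequenced in droplets with a 10x Genomics 3' kit at postnatal day 6, while alveolar septa form. All pups had the labelled genotype Gli1CreERT2/+,R26RtdT/+, so a tamoxifen-inducible Cre recombinase occupied 1 Gli1 allele in both groups and tamoxifen was given to all at day 1. At day 3 one group received control IgG and the other the antibody 5E1, which binds and blocks Hedgehog ligands. Lungs of 3 pups per group were pooled before sequencing, so each group is 1 library, and no difference below has a replicate check or a test. All intervals are exact 95% intervals that cover counting error only.

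Notch receptors are single-pass membrane proteins that are cleaved when a ligand on a neighbouring cell binds them, which frees an intracellular part that joins the DNA-binding protein RBPJ and switches on target genes. The Hey and Hes genes, which encode repressors of transcription, are the best known targets. In blood vessels, Dll4 on endothelial cells acts through Notch1 and Notch4 in sprouting and arterial identity, and Jag1 acts through Notch3 on the mural cells, the pericytes and smooth muscle cells around the endothelium.

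A UMI (unique molecular identifier) stands for 1 captured transcript. The annotated cells numbered 13509 in the IgG library, with 77436890 UMIs in all and 4541 in the median cell, and 9454 in the 5E1 library, with 58890639 and 4636. A total of 184 cell barcodes occurred in both libraries, 18 of them in the same cluster, which is 1.36% and 1.95% of the cells. The pools differed in sex: transcripts of Y-linked genes gave 4 UMIs in the IgG library and 5009 in the 5E1 library, and Xist was detected in 91.6% and 27.4% of cells. Over all cells, sex composition and antibody therefore cannot be told apart. The authors' 23 clusters carry no cell type names. Each was called "like" a type after fixed markers among its leading genes, and clusters 3, 10, 12, 14 and 22 kept their numbers. Cluster 11 was endothelial-like (13 of 13 endothelial markers detected) and cluster 13 pericyte-like (10 of 13 pericyte markers). Cluster 22 held 10 of 11 smooth muscle and 7 of 13 pericyte markers, and cluster 10 held both secretory and ciliated airway markers.

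Most members were highest in endothelial-like or mural clusters. Notch1, Notch4, Dll4, Jag2 and Hey1 had their highest level in endothelial-like cluster 11 of both libraries, Notch2 and Notch3 in pericyte-like cluster 13, and Jag1 in cluster 22. Heyl and Hes1 were the only members whose highest cluster differed between the libraries. Levels are given as CPM, the UMIs of a gene per 1000000 UMIs of its cluster and library. They are not scaled by transcript length, so they are compared between clusters and libraries and not between genes. Since UMIs were summed over the cells of a cluster, fewer cells with a transcript and less transcript per cell cannot be told apart in CPM. CPM is also relative, so a change in other genes of the cluster can shift it.

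**Figure D1:**
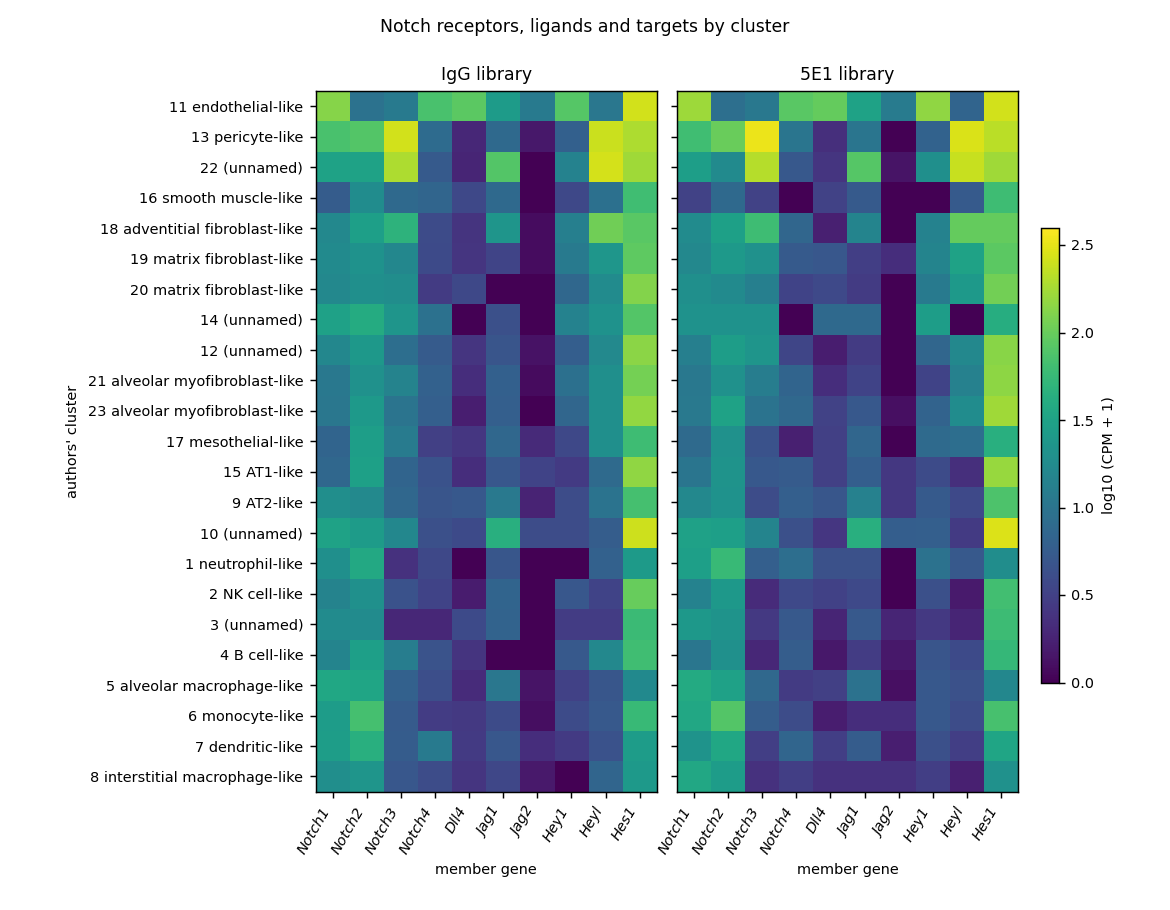
Heat maps of the 10 members (columns) in the authors' 23 clusters (rows), 1 panel per library, coloured by log10 of CPM plus 1. Notch4, Dll4 and Hey1 are brightest in endothelial-like cluster 11, while Notch3 and Heyl are brightest in pericyte-like cluster 13 and cluster 22, and 8 of 10 members have the same highest cluster in both libraries.

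Among the receptors, Notch1 (GRCm38 chr2:26457903-26516663, minus strand) was highest in endothelial-like cells. Endothelial-like cells had 133 CPM (126 to 140) of it in IgG and 163 (156 to 171) in 5E1. Pericyte-like cells followed at 70.8 (59.9 to 83.1) and 62.6 (51.1 to 76.0) CPM, and alveolar macrophage-like cluster 5 at 34.8 and 37.7 CPM. The remaining clusters reached down to 4.73 and 2.24 CPM in smooth muscle-like cluster 16, and endothelial-like cells held 50.7% and 65.5% of all Notch1 UMIs of each library. Notch4 (chr17:34564268-34588503, plus strand), a receptor best known from blood endothelium, was more restricted. It stood at 70.8 CPM (65.8 to 76.1) in endothelial-like cells of IgG and 85.9 (80.7 to 91.4) of 5E1, where 74.1% and 83.4% of its UMIs lay. The next clusters in order, with 10.6 CPM in dendritic-like cells of IgG and 9.21 CPM in pericyte-like cells of 5E1, lay far below.

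Notch3 (chr17:32120820-32166852, minus strand), the receptor of mural cells, stood at 262 CPM (240 to 285) in pericyte-like cells of IgG and at 335 (308 to 365) in those of 5E1. Cluster 22 followed at 189 (174 to 204) and 202 (185 to 220) CPM, and adventitial fibroblast-like cluster 18 at 47.0 and 61.0 CPM. In each library the intervals of these 3 clusters did not overlap, so their order exceeded the counting error. Cluster 16 did not share the high level, with 10 and 1 UMIs of Notch3, or 6.75 and 2.24 CPM. Its smooth muscle-like name rests on 1 leading marker, and Ppbp leads it. Cluster 22, which kept its number, held most of the smooth muscle markers and had a high level. The Notch3 gene body overlaps that of 1 other counted feature, Gm17276, on the opposite strand. Notch2 (chr3:98013527-98150361, plus strand) was the most evenly spread receptor. It was highest in pericyte-like cells at 78.9 CPM (67.3 to 91.8) in IgG and 101 (86.4 to 118) in 5E1. Monocyte-like cluster 6 came next at 67.1 (59.5 to 75.5) and 78.7 (65.8 to 93.3) CPM, and these neighbours overlapped in both libraries. In endothelial-like cells it stood at 8.61 CPM in IgG, the lowest of all clusters of that library.

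Of the ligands, Dll4 (chr2:119325784-119335962, plus strand), which marks arterial and sprouting endothelium, was nearly confined to the endothelial-like cluster. That cluster held 88.8% of its UMIs in IgG and 92.3% in 5E1, at 87.0 CPM (81.4 to 92.8) and 96.0 CPM (90.4 to 102). Over all other clusters together it stood at 1.72 and 2.00 CPM. Jag2 (chr12:112907819-112929776, minus strand) was sparse, with 151 and 181 UMIs per library, of which 73.5% and 72.9% lay in endothelial-like cells at 10.6 (8.74 to 12.8) and 11.2 (9.37 to 13.3) CPM.

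Jag1 (chr2:137081456-137116644, minus strand) had another distribution, led by clusters of different kinds. It was highest in cluster 22 at 78.4 CPM (69.3 to 88.4) in IgG and 81.9 (71.3 to 93.6) in 5E1. Airway cluster 10 followed at 42.6 (37.5 to 48.1) and 42.5 (37.0 to 48.5), and endothelial-like cells at 26.0 (23 to 29.3) and 30.4 (27.3 to 33.7). The order of these 3 clusters was the same in both libraries with no overlap between neighbours. Adventitial fibroblast-like cells stood in IgG at 21.7 CPM (17.7 to 26.3), which overlapped endothelial-like cells, and stood at 13.9 (9.91 to 18.9) in 5E1, which did not.

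Promoter windows of 300 bases, from 250 before to 50 after the start site, were looked up in RefSeq (GRCm38.p6) and matched 7 of the 10 members. Entries for Hey1, Heyl and Hes1 were not matched. Those of Notch4 and Dll4 are shown because these genes share the endothelial pattern, and those of Notch3 and Jag1 because these share high levels in cluster 22. Capitals mark GC boxes (GGGCGG, either strand) and the AP-1 site (TGACTCA, either strand), both of which were searched after the sequences had been seen.
Notch4, chr17:34564045-34564344, plus strand: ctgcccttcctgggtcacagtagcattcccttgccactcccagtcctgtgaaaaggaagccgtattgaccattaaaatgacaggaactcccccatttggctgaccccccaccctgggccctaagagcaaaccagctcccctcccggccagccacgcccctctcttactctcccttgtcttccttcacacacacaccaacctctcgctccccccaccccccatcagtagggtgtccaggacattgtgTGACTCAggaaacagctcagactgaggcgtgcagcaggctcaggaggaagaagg
Dll4, chr2:119325534-119325833, plus strand: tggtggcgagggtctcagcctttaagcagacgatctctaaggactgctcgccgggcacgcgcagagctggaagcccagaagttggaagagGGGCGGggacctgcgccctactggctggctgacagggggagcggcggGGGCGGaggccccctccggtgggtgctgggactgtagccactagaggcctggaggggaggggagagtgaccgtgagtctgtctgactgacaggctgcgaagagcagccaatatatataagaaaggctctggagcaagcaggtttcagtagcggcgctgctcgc
Notch3, chr17:32166841-32167140, minus strand: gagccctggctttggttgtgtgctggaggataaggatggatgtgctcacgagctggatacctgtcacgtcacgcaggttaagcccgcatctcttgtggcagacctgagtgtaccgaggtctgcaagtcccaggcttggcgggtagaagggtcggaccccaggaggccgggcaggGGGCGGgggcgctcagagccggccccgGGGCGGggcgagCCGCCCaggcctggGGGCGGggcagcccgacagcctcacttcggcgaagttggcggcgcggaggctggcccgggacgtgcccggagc
Jag1, chr2:137116471-137116770, minus strand: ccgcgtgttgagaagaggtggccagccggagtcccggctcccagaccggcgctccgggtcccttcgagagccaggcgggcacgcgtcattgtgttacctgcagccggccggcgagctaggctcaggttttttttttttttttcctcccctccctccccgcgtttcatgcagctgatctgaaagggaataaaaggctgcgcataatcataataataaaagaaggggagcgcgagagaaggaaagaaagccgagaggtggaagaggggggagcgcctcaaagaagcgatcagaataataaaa
Notch4 had no GC box and 5 CpG dinucleotides in this window, against 2 GC boxes and 17 CpG in Dll4, 4 GC boxes and 25 CpG in Notch3, and no GC box and 22 CpG in Jag1. The median over 32851 mouse promoters of the same length was 7 CpG. Of those promoters 35.7% hold a GC box, as do 5 of the 7 matched members. The AP-1 site of Notch4 begins at position -4, with the start site at 0, and 5.20% of all promoters hold such a site. None of the 7 windows contained the RBPJ core TGGGAA (25.6% of all promoters), the GLI motif GACCACCCA (0.253%), the ETS core CCGGAA (14.9%) or a CArG box (1.63%), each searched on both strands. No match of 1 motif overlapped a match of another.

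The target genes differed in where they were highest. Hey1 (chr3:8663359-8667256, minus strand), the Notch target of arterial endothelium, was highest in endothelial-like cells, with 68.1% and 84.7% of its UMIs there. Heyl (chr4:123233556-123249875, plus strand), the Hey gene of mural cells, stood at 269 (252 to 287) and 242 (224 to 262) CPM in cluster 22 and at 246 (225 to 268) and 281 (256 to 308) CPM in pericyte-like cells. Their intervals overlapped in each library, so no order was set between these clusters. Adventitial fibroblast-like cells followed at 106 and 94.7 CPM. Cluster 16, whose smooth muscle-like name rests on 1 leading marker, gave only 12 and 2 UMIs of Heyl, or 8.11 and 4.47 CPM. Hes1 (chr16:30064384-30067796, plus strand), a target that also responds to other signals, was present in every cluster. It stood at 266 (256 to 276) and 264 (254 to 273) CPM in endothelial-like cells, 248 (236 to 261) and 289 (275 to 305) in airway cluster 10, and 191 and 216 in pericyte-like cells. Its lowest levels were 16.3 and 15.04 CPM in alveolar macrophage-like cells.

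The comparison of 5E1 with IgG asked where Notch members differed after Hedgehog blockade. A pair of gene and cluster was counted as different when the CPM ratio was at least 1.5-fold in either direction and both libraries together gave at least 20 UMIs. Of 230 pairs, 139 reached that minimum. Of these, 12 were higher in 5E1 (8.63%) and 19 lower (13.7%), beside 7.07% and 10.5% of the 220989 pairs of all features. Counting only pairs whose interval left out 1, 5 were higher (3.60%) and 11 lower (7.91%), beside 3.28% and 4.87%. The median log2 ratio was 0.01 over member pairs and -0.02 over all pairs. The remaining 108 pairs differed by less than 1.5-fold. The counts depended on the setting, so nothing particular to the members is read from them. With thinned cells 61 pairs were left, of which 11.5% were lower beside 12.7% of all pairs, and with at least 50 UMIs 89 pairs were left, of which 6.74% were lower beside 6.61%. With 5E1 cells that held Xist, 19.8% of 126 pairs were higher beside 9.48%. The lower pairs were led by Heyl, with 5 clusters lower and none higher among 15 that reached the minimum, while Hey1 was higher in 4 clusters and lower in 1 of 12.

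**Figure D2:**
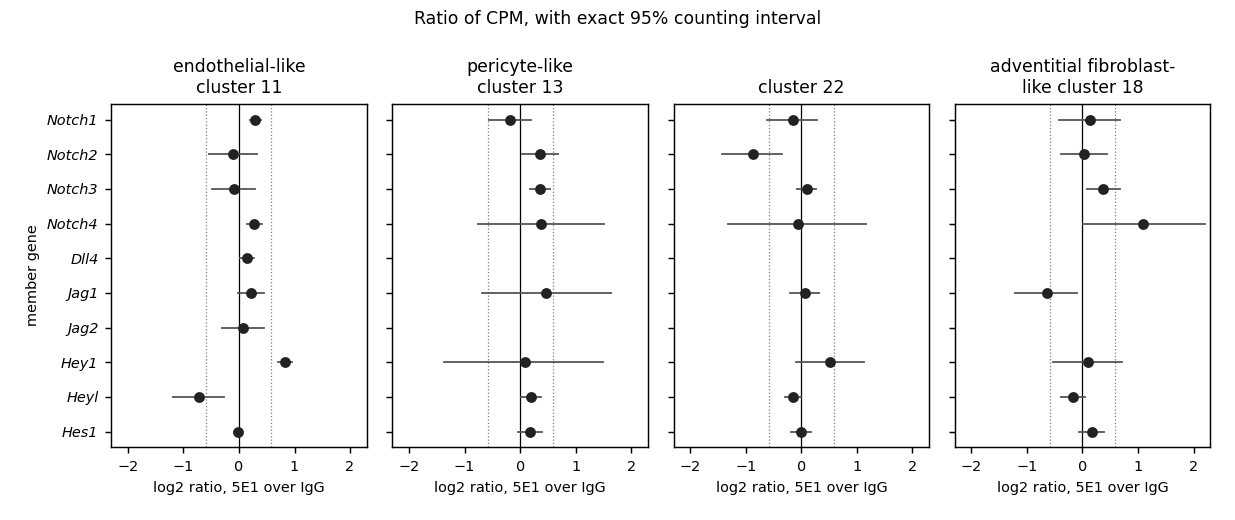
Log2 ratio of CPM, 5E1 over IgG (horizontal axis), of each member with at least 20 UMIs (rows) in endothelial-like cluster 11, pericyte-like cluster 13, cluster 22 and adventitial fibroblast-like cluster 18; points are ratios, bars exact 95% counting intervals, and dotted lines mark 1.5-fold. Hey1 in cluster 11 lies at 0.83 with a narrow interval, and Heyl in the same cluster lies below 0.

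Hey1 in endothelial-like cells was the difference with the most UMIs behind it. It gave 854 UMIs in 1293 IgG cells and 1712 UMIs in 1314 5E1 cells. Its level was 81.7 CPM (76.3 to 87.4) in IgG and 145 CPM (138 to 152) in 5E1, a ratio of 1.78 (1.64 to 1.93). In this cluster all 10 members reached the minimum of UMIs, 1 was higher and 1 lower past 1.5-fold, beside 3.84% and 5.94% of 12856 features. After every cell was thinned to 1000 UMIs, Hey1 was detected in 109 of 1211 IgG cells (9.0%; 7.45 to 10.8%) and 166 of 1247 5E1 cells (13.3%; 11.5 to 15.3%). Unthinned, 29.9% and 42.5% of cells held a UMI, and the median cell had 4445 and 4691.5 UMIs. In B cell-like cells, which should lack Hey1, the thinned values were 0.533% (2 of 375) and 0 of 426 (at most 0.862%). The median B cell-like cell had 2498.5 and 3325 UMIs. Summed over leukocytes, however, Hey1 was also higher in 5E1, on 36 and 57 UMIs. Its levels there were 2.33 (1.63 to 3.22) and 3.89 (2.94 to 5.04) CPM, a ratio of 1.67 (1.08 to 2.61). Neutrophil-like cluster 1 gave 0 and 10 of these UMIs. The source of Hey1 UMIs in leukocytes was not tested.

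The other members in endothelial-like cells differed by less, or in the other direction. Notch1 had a ratio of 1.23 (1.15 to 1.32), Notch4 of 1.21 (1.10 to 1.34) and Dll4 of 1.10 (1.01 to 1.2). Jag1 was at 1.17 (0.994 to 1.37) and Hes1 at 0.99 (0.941 to 1.04), so the latter target differed by less than its counting error while Hey1 was higher. Heyl, at low level here, gave 101 and 69 UMIs, or 9.67 (IgG) and 5.85 CPM (5E1), a ratio of 0.606 (0.439 to 0.831). In the same cells the summed smooth muscle markers stood at 422 and 304 CPM and the summed pericyte markers at 333 and 402 CPM; their part in the Heyl difference was not tested. Some markers of arterial endothelium were also higher. Efnb2, a membrane ligand of arteries, was at 137 and 208 CPM (ratio 1.52; 1.42 to 1.62). Gja5, an arterial gap junction protein, was at 57.6 and 80.8 CPM (1.40; 1.27 to 1.56). Gja5, Bmx, Cxcl12, Fbln5 and Sema3g of the same marker list were higher by less than 1.5-fold. Gja4, with a ratio of 1.004 (0.958 to 1.05), and Sox17, with 0.986 (0.936 to 1.04), were level. Such a rise was not particular to arterial markers. Ptprb of the general capillary list (1.36), Ednrb of the Car4 capillary list (1.35) and Lyve1 of the lymphatic list (1.37) were higher too. Others of these lists were not, such as Car4 (0.958) and Prox1 (0.857). Vwf, the clotting factor of larger vessels and here a venous marker, was at 219 and 364 CPM (1.67; 1.58 to 1.75). The venous list was not uniform: Slc6a2 was also higher (1.67; 1.41 to 1.99) and Prss23 slightly so (1.19; 1.12 to 1.26). Nr2f2 was level (0.993; 0.908 to 1.09), Vcam1 was at 0.802 (0.610 to 1.05), and Ackr1 gave only 10 UMIs. Efnb2, Gja5, Vwf, Ptprb, Ednrb, Lyve1, Car4 and Prox1 were picked after their values were seen.

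Because the 5E1 pool contained both sexes, its endothelial-like cells were divided by sex-linked transcripts. Hey1 stood at 128 CPM (116 to 141) in the 344 cells with Xist and no Y-linked UMI, at 148 (138 to 158) in the 436 cells with a Y-linked and no Xist UMI, and at 158 (144 to 172) in the other 534. All 3 lay above the 81.7 CPM of the IgG library. For Notch1 and Notch4 the cells with Xist were close to the IgG level, and for Dll4 they lay below it. Notch1 was at 137, 186 and 149 CPM, Notch4 at 71.0, 96.3 and 82.0 and Dll4 at 82.3, 98.4 and 105, beside IgG levels of 133, 70.8 and 87.0. Restricted to 5E1 cells with Xist, the log2 ratio of Hey1 was 0.65, that of Notch1 0.04, that of Notch4 0.00 and that of Dll4 -0.08. With all 5E1 cells these log2 ratios were 0.83, 0.30, 0.28 and 0.14, so the Hey1 difference was smaller in cells with Xist. Depth differed between these cells too, with median UMIs of 5523.5, 9269.5 and 3037.5, and the part of sex and of depth in the differences was not tested.

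**Figure D3:**
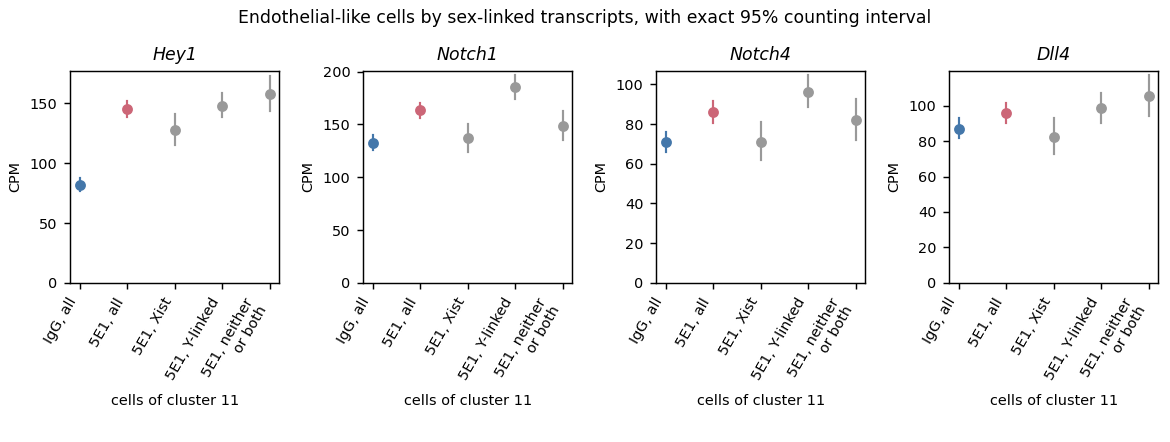
CPM (vertical axis) of Hey1, Notch1, Notch4 and Dll4 in endothelial-like cluster 11 for all IgG cells, all 5E1 cells and 5E1 cells divided by sex-linked transcripts; points are levels and bars exact 95% counting intervals. All groups of 5E1 cells lie above IgG for Hey1, whereas 5E1 cells with Xist lie near IgG for the other 3 genes.

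Endothelial-like cells were then divided into subsets by markers that are not members. Arterial cells numbered 177 in IgG and 195 in 5E1, general capillary cells 721 and 773, Car4 capillary cells (the wide aerocytes of the alveolus) 183 and 185, lymphatic cells 100 and 65, and venous cells 24 and 33, with 88 and 63 unassigned. The venous markers were not exclusive, as Vwf also stood at 976 and 1650 CPM in the arterial subset. Hey1 was highest in arterial cells, at 220 CPM in IgG and 373 in 5E1 (ratio 1.69; 1.46 to 1.97). It was intermediate in general capillary cells, at 76.9 and 129 CPM (1.68; 1.52 to 1.87). In Car4 capillary cells it was low, at 21.4 and 59.96 CPM on 16 and 49 UMIs (2.81; 1.57 to 5.29). In lymphatic cells it stood at 19.6 and 25.7 CPM (1.31; 0.666 to 2.62), and venous cells gave 0 and 1 UMI. Hey1 was thus higher past 1.5-fold in each of the 3 subsets with most cells, in which 7.86%, 4.18% and 11.7% of features were higher. In general capillary cells the ratio dropped to 1.29 after thinning and to 1.34 with 5E1 cells that held Xist, both below 1.5. At the subset composition of the IgG library the ratio of the whole cluster was 1.72.

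Dll4 and Notch4 were likewise highest in arterial cells of both libraries. Dll4 stood at 179 and 226 CPM in arterial cells (ratio 1.26; 1.06 to 1.51), but at 80.3 and 80.6 in general capillary cells (1.0; 0.896 to 1.12) and 94.8 and 100.3 in Car4 capillary cells. With thinned cells the arterial Dll4 ratio was 0.766, on the other side of 1. Notch4 was at 111 and 171 CPM in arterial cells (1.54; 1.24 to 1.92), 76.5 and 82.9 in general capillary cells, and 5.44 and 11.02 in lymphatic cells. Notch1 was at 121 and 146 CPM in general capillary, 123 and 116 in Car4 capillary, 209 and 277 in arterial, and 148 and 201 in lymphatic cells, so Notch1, unlike Notch4, was no lower in lymphatic than in general capillary cells. The Notch1 ratio between libraries shifted with the setting. After thinning it went from 1.33 to 1.004 in arterial and from 0.946 to 0.509 in Car4 capillary cells. With 5E1 cells that held Xist it went from 1.21 to 0.95 in general capillary cells. Thinned values rest on few UMIs. Notch1 was found in 26 of 172 and 14 of 169 thinned Car4 capillary cells, or 15.1% (10.1 to 21.4%) and 8.28% (4.60 to 13.5%), which overlap.

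Jag1 differed widely between subsets. It reached 114 and 109 CPM in arterial and 70.7 and 114 in venous cells, on 10 UMIs in IgG in the latter, against 14.3 and 17.5 in general capillary and 6.68 and 4.89 in Car4 capillary cells. Hes1 ranged in IgG from 149 CPM (91.9 to 227) in venous to 317 CPM (278 to 360) in Car4 capillary cells, and in arterial and both kinds of capillary cells it differed between libraries by less than its counting error. Hey2, the paralog of Hey1, was chosen after its values were seen. Within endothelial-like cells it was highest in the arterial subset, at 21.6 and 29.1 CPM against 0.413 and 1.09 in general capillary cells, while its highest level of all clusters was in cluster 22, at 47.1 and 44.8 CPM.

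**Figure D4:**
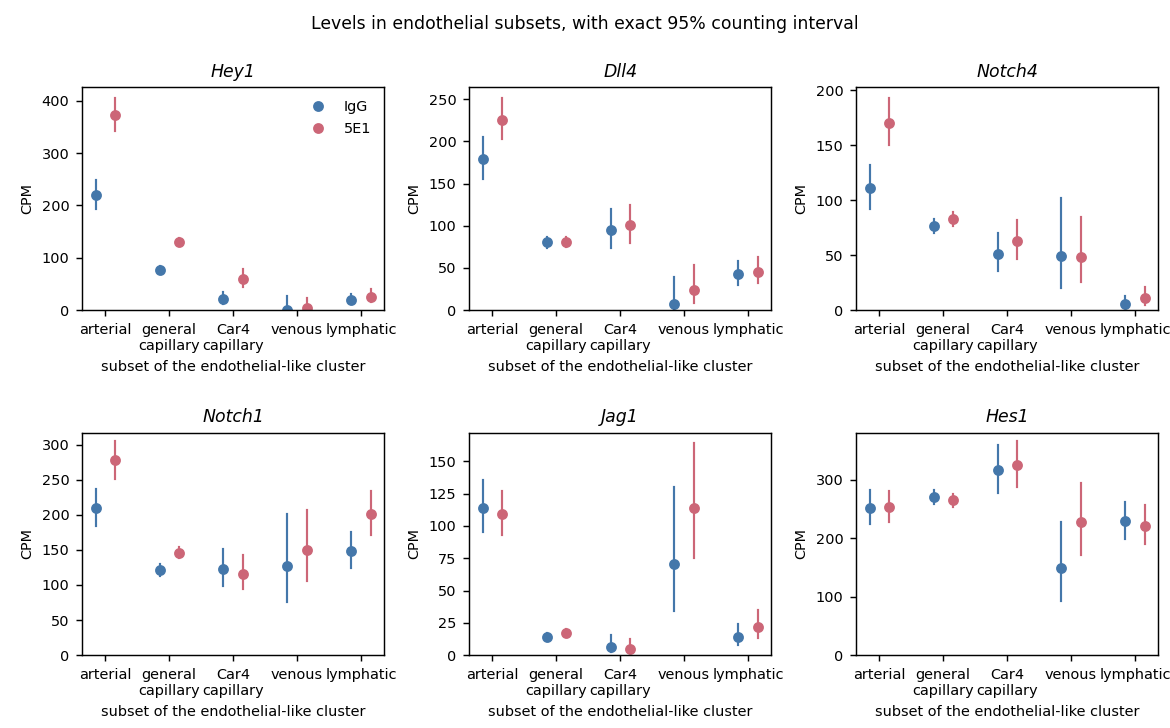
CPM (vertical axis) of Hey1, Dll4, Notch4, Notch1, Jag1 and Hes1 in 5 subsets of endothelial-like cluster 11, for IgG (blue) and 5E1 (red); points are levels and bars exact 95% counting intervals. Hey1 is higher in 5E1 in arterial, general capillary and Car4 capillary cells, whereas Dll4 and Hes1 overlap between libraries in the capillary subsets.

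The members differed little in pericyte-like cells. There, 8 members reached 20 UMIs and none differed past 1.5-fold, beside 6.28% of features higher and 8.39% lower. Notch3 gave 551 UMIs in IgG and 546 in 5E1 there, a ratio of 1.28 (1.14 to 1.44), Notch2 gave 166 and 165 (1.28; 1.03 to 1.60), and Heyl 518 and 458 (1.14; 1.01 to 1.30). These 3 genes were therefore slightly higher per UMI of the cluster. Hes1 was at 1.13 (0.977 to 1.31), while the summed immediate early genes, which tissue digestion can also induce, stood at 2621 and 3910 CPM in these cells. After thinning, Notch3 was detected in 21.2% (17.4 to 25.4%) and 25.9% (21.2 to 31.1%) of pericyte-like cells, intervals that overlap.

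Cluster 22 was likewise nearly level for Notch3 (1.07; 0.95 to 1.2), Jag1 (1.04; 0.868 to 1.25) and Hes1 (0.992; 0.875 to 1.13). Heyl was slightly lower (0.9; 0.812 to 0.997). Notch2 was the exception: it gave 103 UMIs in IgG and 43 in 5E1, or 30.1 and 16.4 CPM, a ratio of 0.546 (0.373 to 0.786), 1 of 8 members lower and none higher, beside 7.03% and 5.27% of features. Ptch1, the Hedgehog receptor and target, was at 20.8 and 8.03 CPM in the same cluster, and the summed endothelial markers at 235 and 358 CPM. A link of either to the Notch2 difference was not tested. In smooth muscle-like cluster 16, Notch2 gave only 26 UMIs in IgG and 3 in 5E1. Its ratio there was 0.382 (0.074 to 1.25), an interval that includes 1.

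Adventitial fibroblast-like cells had less Jag1 in 5E1, with 104 and 40 UMIs, or 21.7 and 13.9 CPM (ratio 0.639; 0.432 to 0.928), beside 5.62% of features higher and 7.31% lower. Notch3 there was at a ratio of 1.30 (1.06 to 1.59), and Notch4 was higher on 14 and 18 UMIs (2.14; 1.003 to 4.64). Heyl (0.889; 0.765 to 1.03) and Hes1 (1.13; 0.963 to 1.32) differed by less than counting error. In alveolar myofibroblast-like cluster 21, Hey1 gave 42 UMIs in IgG and 4 in 5E1, or 8.18 and 2.35 CPM (0.288; 0.0749 to 0.793), beside 12.3% of features lower. In the other alveolar myofibroblast-like cluster, cluster 23, none of 8 members differed past 1.5-fold, beside 7.52% of features higher and 9.11% lower.

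Proliferating cluster 12, which held 7 of 7 cell cycle markers and 6 of 11 alveolar myofibroblast markers, had more Notch3 in 5E1. It gave 46 UMIs in 640 IgG cells and 35 in 168 5E1 cells, or 7.70 and 21.6 CPM (ratio 2.80; 1.75 to 4.44), beside 5.68% of features higher. The summed pericyte markers stood at 550 and 652 CPM in this cluster, with Higd1b at 16.7 and 8.63 and Cox4i2 at 26.1 and 32.1 CPM, and their part was not tested. Thinned shares of cells with Notch3 were 0.940% (0.346 to 2.04%) and 2.40% (0.656 to 6.02%), which overlap.

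Heyl and Notch3 were lower in 5E1 in several clusters where both are scarce. Heyl gave 21 and 6 UMIs in B cell-like cells (ratio 0.188; 0.0621 to 0.481), 44 and 12 in AT2-like cells (0.317; 0.152 to 0.610), 29 and 9 in airway cluster 10 (0.367; 0.153 to 0.797) and 35 and 11 in mesothelial-like cells (0.411; 0.188 to 0.827). Notch3 gave 32 and 13 UMIs in AT2-like cells (0.472; 0.227 to 0.924) and 21 and 5 in mesothelial-like cells (0.311; 0.0917 to 0.848). The shares of all features lower past 1.5-fold were 10.5% in B cell-like, 8.88% in AT2-like and 9.43% in mesothelial-like cells and 6.89% in cluster 10. Summed over leukocytes, Heyl stood at 5.04 (3.99 to 6.30) and 2.39 (1.66 to 3.32) CPM, a small fraction of its level in pericyte-like cells. Markers of mural cells were lower in these 4 clusters too. The summed pericyte markers were at 308 and 66.6 CPM in B cell-like cells, 182 and 86.7 in AT2-like cells, 127 and 37.9 in cluster 10 and 290 and 208 in mesothelial-like cells, and of 8 such markers tested in B cell-like cells none was higher. Cox4i2 in B cell-like cells was at 61.2 and 6.71 CPM and Higd1b at 47.4 and 5.27 CPM. Free RNA, released by other cells into the droplets, gives UMIs of this kind, and its part in the Heyl and Notch3 values was not tested. After thinning, Heyl was found in 3 of 375 B cell-like cells of IgG and 0 of 426 of 5E1.

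The remaining pairs past 1.5-fold rested on few UMIs, except Hes1 in NK cell-like cluster 2, which also held 8 of 8 T cell markers. Hes1 gave 170 and 117 UMIs there, or 99.0 and 64.5 CPM (ratio 0.651; 0.510 to 0.829), beside 8.87% of features lower, while the summed immediate early genes were at 3696 and 3757 CPM. Notch1 in interstitial macrophage-like cells was at 18.3 and 35.4 CPM, on 36 and 52 UMIs (1.93; 1.24 to 3.05), beside 8.61% of features higher, where the summed immediate early genes were at 7758 and 12209 CPM. Dll4 in matrix fibroblast-like cluster 19 gave 14 and 10 UMIs (2.67; 1.06 to 6.47), beside 7.75% of features higher, and the summed endothelial markers there were at 438 and 687 CPM. The part of these markers in the differences was not tested. Of the other pairs, all 15 have intervals that include 1: Hey1 was higher in clusters 5, 10 and 20, Notch1 and Notch2 in neutrophil-like cluster 1, Jag2 in cluster 10 and Notch4 in cluster 19. Notch2 was lower in clusters 14 and 16, Jag1 and Notch4 in cluster 12, Jag1 in cluster 21, Hes1 in cluster 14, Dll4 in cluster 10 and Notch4 in dendritic-like cells.

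The wider pathway was described with a list of 46 other genes, of which 42 gave at least 20 UMIs in at least 1 cluster. Over 712 pairs of gene and cluster, 44 were higher past 1.5-fold (6.18%) and 64 lower (8.99%), both below the 7.07% and 10.5% of all features, with a median log2 ratio of 0.03. Of other ligands, Dll1 was highest in endothelial-like cells at 25.4 and 29.5 CPM. Dlk1, a non-canonical ligand and an imprinted gene, was highest in AT2-like cells at 622 and 602 CPM. Of the 19 clusters where it reached 20 UMIs, 7 were lower and 2 higher past 1.5-fold. Dlk1 was lower in pericyte-like cells, at 169 and 82.3 CPM (ratio 0.486; 0.396 to 0.595), and in cluster 22, at 137 and 77.6 CPM (0.568; 0.480 to 0.672). AT1-like cells also had less, at 87.5 and 53.0 CPM, a ratio of 0.606 (0.475 to 0.773). Adventitial fibroblast-like cells were level (0.995; 0.919 to 1.08).

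Of the Fringe genes, which add sugars to Notch receptors and so set their response to ligands, Mfng was highest in endothelial-like cells at 148 and 156 CPM (1.06; 0.988 to 1.13). Lfng was at 65.6 and 80.2 CPM there (1.22; 1.11 to 1.35) and highest in cluster 3, which held mast cell, basophil and T cell markers, at 103 and 164 CPM (1.59; 1.25 to 2.03). Nrarp, a target that limits Notch signalling, was highest in pericyte-like cells at 171 and 160 CPM and stood at 141 and 147 CPM in endothelial-like cells (1.04; 0.971 to 1.12). In general capillary cells it stood at 157 and 146 CPM (0.935; 0.861 to 1.01) and in arterial cells at 195 and 273 CPM (1.40; 1.18 to 1.65), both within 1.5-fold. Past that fold it was higher in Car4 capillary cells at 61.4 and 109 CPM (1.77; 1.23 to 2.59) and lower in lymphatic cells at 46.8 and 22.04 CPM (0.471; 0.256 to 0.835).

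Genes of the shared machinery were detected in endothelial-like cells. Psenen, a subunit of the gamma-secretase that cuts the receptor, stood there at 186 and 191 CPM (1.03; 0.966 to 1.09), and Aph1a, another subunit, at 190 and 170 CPM (0.895; 0.841 to 0.953). Adam10, the protease of the preceding cut, was at 64.9 and 76.4 CPM (1.18; 1.06 to 1.30), and Itch, a ubiquitin ligase for Notch, at 49.7 and 55.1 (1.11; 0.988 to 1.25). Rbpj was at 48.4 and 67.3 CPM in adventitial fibroblast-like cells (1.39; 1.14 to 1.69), and none of its 23 clusters passed 1.5-fold in either direction.

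Across the 46 sums of cluster and library, levels of members were also compared with those of 13345 other genes by Pearson correlation of log2 (CPM + 1). The sums share libraries, cells and depth, so these values are descriptions. Notch3 was most like Ndufa4l2 (r = 0.89), a pericyte marker, and Heyl (0.87). Heyl in turn was most like Notch3 and Foxs1 (0.86). Notch4 was most like Robo4 (0.85), an endothelial guidance receptor, Dll4 most like Acer2 (0.85), Hey1 most like Sox7 (0.79), Jag2 most like Kcnq1 (0.83) and Jag1 most like Foxc1 (0.78). Of the remaining members, Hes1 was most like Cyth2 (0.79), Notch1 most like Klhl5 (0.76) and Notch2 most like Tiparp (0.68).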

How the data were processed

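Pools of 3 pups each gave 1 library per condition. The authors deposited raw UMI counts per gene and barcode, made with Cell Ranger 3.1.1 on mm10 per the submitters' processing notes, although the matrix header gives version 3.0.0. Settings of alignment and cell calling were not given in the sources used here. Cells and clusters came from the authors' deposited annotation, which kept 13509 of 15021 and 9454 of 10519 barcodes. Its header is shifted, so its columns were identified by their values.

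Counts were summed per library and cluster and scaled to CPM (Python 3.11.15, scipy 1.17.1). Intervals are exact Poisson for CPM, conditional binomial for ratios and Clopper-Pearson for shares. PCR duplicates are removed by UMIs, and all intervals cover counting error only. The ratio step was tested on simulated data. A cluster was named after the list with most markers among its 10 leading genes by fold, with at least 3 detected. Clusters 1, 16, 19 and 23 rest on 1 leading marker, Ppbp leads cluster 16, and names may differ from the authors'. Endothelial-like cells joined the subset list with most UMIs, at least 2. Shares came from cells thinned to 1000 UMIs. No doublet caller was run. Named pathway genes reached 50 CPM in a cluster, or passed the fold with at least 100 UMIs, and for likeness the closest 3 were ranked. The text prints a choice of these. Members and lists were chosen with earlier results of these data known. Gene positions are from GENCODE M21 (GRCm38).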

Additional observations from a re-analysis of the deposited data

How the results depend on the processing

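The highest cluster was the same in both libraries for 8 of the 10 members, and this count stayed within 1.5 times under every alternative tried for it. Of 139 member pairs, 12 were higher and 19 lower past 1.5-fold. The higher pairs numbered 25 of 126 with 5E1 cells that held Xist and no Y-linked UMI (19.8%, beside 9.48% of all features), 7 of 125 without non-endothelial cells that held endothelial UMIs (5.6%, beside 7.40%), 4 of 89 with at least 50 UMIs (4.49%, beside 4.42%) and 41 of 225 with no minimum (18.2%, beside 16.2%). The lower pairs numbered 7 of 61 with cells thinned to 1000 UMIs (11.5%, beside 12.7%), 6 of 89 with at least 50 UMIs (6.74%, beside 6.61%) and 52 of 225 with no minimum (23.1%, beside 23.6%). With an interval that leaves out 1 the counts were 5 and 11 of 139, and with a fold of 2 they were 3 and 10 of 139 (2.16% and 7.19%, beside 1.99% and 4.03%). Of 712 pathway pairs, 44 were higher and 64 lower. They numbered 23 and 24 of 544 with at least 50 UMIs and 8 and 24 of 712 with a fold of 2, and the lower ones 37 of 330 after thinning (11.2%) and 111 of 653 with Xist cells (16.998%, beside 17.6%). Thinning to 2000 UMIs raised the shares of endothelial-like cells with Hey1 to 14.7% and 24.2%. In arterial cells, thinning gave ratios of 0.766 for Dll4 and 1.004 for Notch1. In general capillary cells, thinning gave 1.29 for Hey1, 1.23 for Notch4 and 1.37 for Notch1, and Xist cells gave 1.34 for Hey1, 0.803 for Dll4, 0.7995 for Notch4 and 0.95 for Notch1. In Car4 capillary cells thinning gave 0.509 for Notch1. Thinning, Xist cells and higher minimums leave fewer cells or UMIs, and the cause of each shift was not tested. Of 320 recomputed ratios of the 66 pairs with at least 100 UMIs, 278 stayed within the counting interval, 23 moved with Xist cells and 19 after thinning, and median-ratio scaling moved none. The interval, the fold of 2, the endothelial-like cluster without arterial cells and the alternatives for subset ratios other than a higher marker minimum were chosen after seeing the data. No paired analysis was possible because each condition is 1 library. With 1 library per condition, leaving out a replicate was not possible either, and pairs near 20 UMIs cannot show a 1.5-fold difference beyond counting error.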
